A study of Mus musculus with 12 samples.

Results

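The comparison described here is between AKT Cre/NRAS and AKT/NRAS, a pair of murine hepatocellular carcinoma (HCC) cell lines, both transfected with the scrambled control siRNA (SCR). Its members are the gene probes of the NanoString® Mouse PanCancer Pathways panel whose deposited value lay above 20 in at least 1 of the 6 SCR samples, and they are 540 of the 770 gene probes. The dimmest member, *Map3k13*, reached 20.6 in its brightest sample, and the 230 probes left out stood at 20 in all 6. What the groups share is the oncogene *NRAS* G12V, the SCR transfection and a common tumour of origin, raised in mouse liver by injecting plasmids through the tail vein. What sets them apart is a second transgene, a floxed AKT made constitutively active by myristoylation, which AKT/NRAS keeps and Cre recombinase has excised from AKT Cre/NRAS. Of each group 3 biological replicates were measured. The series holds 12 samples in all, and the other 6 are the same lines after *Dusp4* siRNA, which serve below as a second set of samples. Each genotype is represented by 1 line, so removal of AKT, exposure to Cre and separate growth in culture cannot be told apart. The run numbers of a group followed each other, so the position in the run and the group cannot be told apart either.

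AKT is the kinase that relays PI3K signals to mTOR and to the FOXO factors, and in liver tumours it supplies growth and survival signals beside those of RAS. RAS passes its own signal through RAF and MEK to ERK, which switches on early transcription factors and, with them, the phosphatases of the DUSP family and the Sprouty proteins that shut the cascade down again. Levels of these feedback inhibitors are widely read as a record of ERK output.

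The lines differed across most of the panel. Of the 540 members, 515 lay above the common floor of 27.1 normalized counts in at least 1 SCR sample and were tested, and the other 25 lay at or under it after scaling. An adjusted p under 0.05 from limma, a linear model with a moderated variance fitted over all tested genes, was taken as a difference. It was met by 396 genes (76.9%), of which 149 were higher in AKT Cre/NRAS (28.9%) and 247 lower (48%), while 404 passed at an unadjusted p under 0.05. In 411 genes (79.8%) the 3 samples of a line did not overlap those of the other, 158 with AKT Cre/NRAS above (30.7%) and 253 with it below (49.1%). The difference was at least 2-fold in 67 of the higher genes (13% of the tested genes) and 109 of the lower (21.2%). The median difference on the log2 scale, always AKT Cre/NRAS minus AKT/NRAS, was -0.22, and the median size was 0.67.

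How many genes counted as higher or lower depended on the scaling. Of the 15 reference genes used here, 4 were themselves called higher in AKT Cre/NRAS, 5 lower and 6 did not pass. Their log2 differences ran from -0.72 to 0.54. Scaling on them gave 149 higher and 247 lower. Against this, the values as deposited gave 202 higher (37.4%) and 99 lower (18.3%) of the 540, all 20 reference genes 186 and 214, and re-centring each sample on its median 203 (39%) and 201 (38.6%) of 521. Quantile normalization gave 191 and 214, the 10 reference genes ranked first 97 and 281, the 5 ranked first 69 and 256, and reference genes chosen within the 6 SCR samples 59 and 259. The median of all tested genes moved with them, from -0.72 to 0.25, so a difference of that size in a single gene did not stand apart from the panel. A set of 156 genes (30.3%) was called with the same sign under all 8 scalings, 58 higher (11.3%) and 98 lower (19%), and of the 176 genes that differed at least 2-fold it held 152. The genes described below come mainly from this set, and for the others the number of scalings passed is given.

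**Figure D1:**
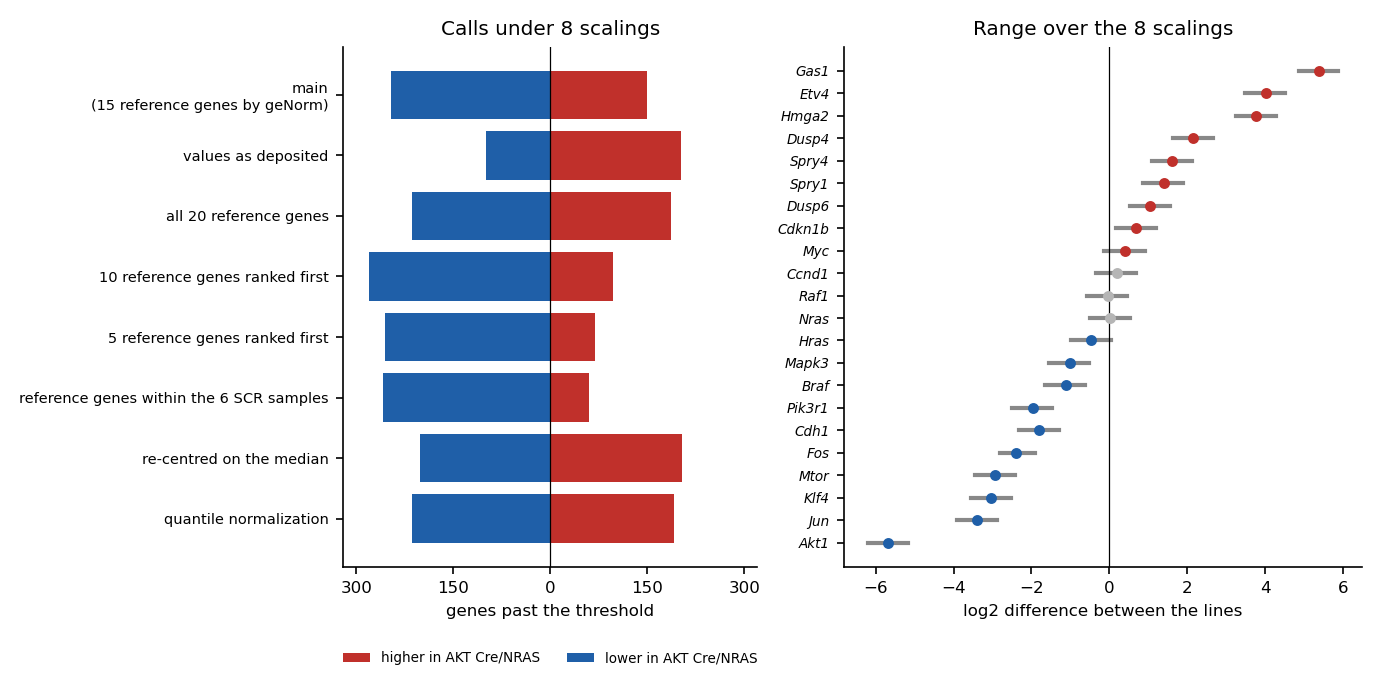
Left, the number of genes past the threshold under each of 8 scalings (bars to the right, higher in AKT Cre/NRAS; bars to the left, lower). Right, log2 differences between the lines for 22 genes (points, main scaling; red higher, blue lower, grey not past the threshold) with their range over the 8 scalings (grey lines): genes such as *Akt1*, *Jun*, *Etv4* and *Gas1* lie far from 0 under every scaling, while the ranges of *Nras* and *Ccnd1* include 0.

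The libraries of the lines were not alike. The recovered barcode counts summed to 646335 to 801287 in AKT/NRAS and 942400 to 1081646 in AKT Cre/NRAS, and *Spp1* alone took 1.99% ± 0.00694 (SD, n = 3) of them in AKT/NRAS and 14.5% ± 1.03 (SD, n = 3) in AKT Cre/NRAS. The log2 ratio of the ribosomal *Rpl19* to *Polr2a*, a subunit of RNA polymerase II, was 3.87, 3.87 and 3.81 in AKT/NRAS and 5.48, 6.36 and 6.88 in AKT Cre/NRAS (exact two-sided permutation test, p = 0.1, the smallest that 3 samples against 3 can give). In the siRNA samples it was 3.86 to 3.92 in AKT/NRAS and 4.72 to 5.03 in AKT Cre/NRAS. The AKT Cre/NRAS SCR libraries also varied more among themselves, with a median SD of 0.17 on the log2 scale against 0.07 in AKT/NRAS. Of the 515 tested genes, 219 fell from library to library in the order in which that ratio rose in AKT Cre/NRAS, and 76 rose. Among the 247 genes called lower 112 fell in that order and 17 rose. Among the 149 called higher 59 fell and 36 rose. The part of that ratio in the results was not tested. Without AKT Cre/NRAS replicate 1 the counts were 160 higher and 253 lower, and without replicate 3 they were 161 and 248. All 34 gene lists used here are given by their counts, to be read beside these panel values, and only some of them also by their median. The plot of log2 differences by gene list marks the median of every list together with the panel median. Of the 396 calls, 348 held without any 1 of the 6 samples.

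**Figure D2:**
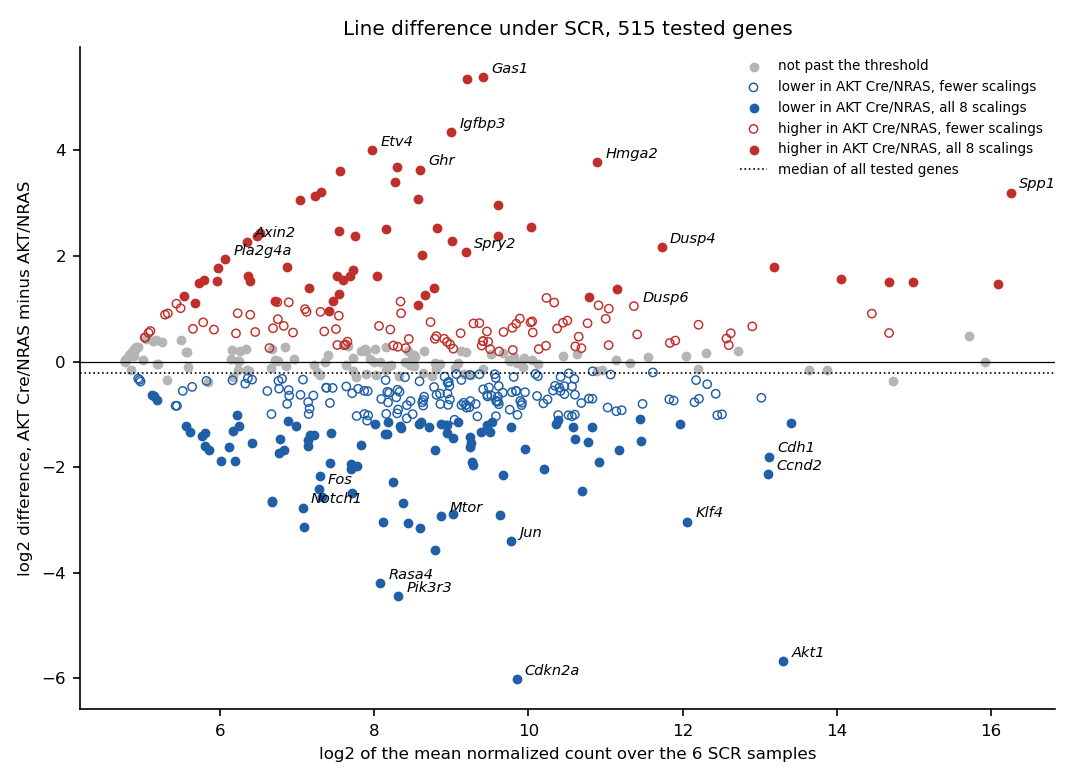
Log2 difference between the lines (vertical axis, AKT Cre/NRAS minus AKT/NRAS, SCR samples) against the log2 of the mean normalized count (horizontal axis) for the 515 tested genes. Filled red and blue points passed under all 8 scalings, open ones under fewer, and grey ones did not pass. The dotted line is the panel median of -0.22. *Cdkn2a* and *Akt1* are the lowest points and *Gas1* is the highest.

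*Akt1* was used to check the labels. Cre was directed at the floxed AKT transgene, and the mouse's own *Akt1* was not its target. Its normalized count was 20228, 20006 and 19259 in the AKT/NRAS samples and 395, 432 and 337 in AKT Cre/NRAS, so every AKT/NRAS sample lay far above every AKT Cre/NRAS sample. The log2 difference was -5.68 (standard error 0.10, adjusted p = 1.35e-09, range -6.20 to -5.17 over the 8 scalings). The sources used here do not say which part of the transcript the probe reads, so how much of the count came from the construct was not tested. In bulk RNA, fewer cells with the construct and less transcript per cell cannot be told apart.

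The PI3K and mTOR genes around AKT were mostly lower in AKT Cre/NRAS. Of 9 tested AKT and PI3K genes, 7 were lower, none higher and 2 did not pass, with a median of -1.02 against -0.22 for the panel, and 4 were lower under all 8 scalings. *Pik3r3*, a regulatory subunit of PI3K, was 613, 627 and 584 in AKT/NRAS and at the floor of 27.1 in all 3 AKT Cre/NRAS samples. It was thus at least 22.5-fold lower. Genes at the floor in all 3 samples of a line are given without a p-value, since the filter fixed their direction. *Pik3r1*, which encodes the regulatory subunit p85-alpha, fell from 1009, 1004 and 969 to 300.4, 221 and 244 (log2 difference -1.97). In both genes the lines did not overlap, which held for 79.8% of tested genes.

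Of 10 tested mTOR genes and AKT substrates, 7 were lower, 1 higher and 2 did not pass, with a median of -0.67. *Mtor*, the kinase itself, was 837, 873 and 770.3 in AKT/NRAS and 111, 102 and 109 in AKT Cre/NRAS (-2.93, standard error 0.09, adjusted p = 4.23e-08). The AKT Cre/NRAS samples lay together at about 1 level, far under the other line. *Prkaa2*, a catalytic subunit of the energy sensor AMPK (-2.57), *Gsk3b*, a kinase that AKT inhibits (-1.46), and *Tsc2*, a brake on mTOR (-1.19), were also lower under all 8 scalings. The gene that was higher was *Eif4ebp1*, the translation inhibitor that mTOR switches off, at 6044, 5966 and 5768 in AKT/NRAS and 9375, 9604 and 9256 in AKT Cre/NRAS (0.67, past the threshold in 6 of 8 scalings).

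**Figure D3:**
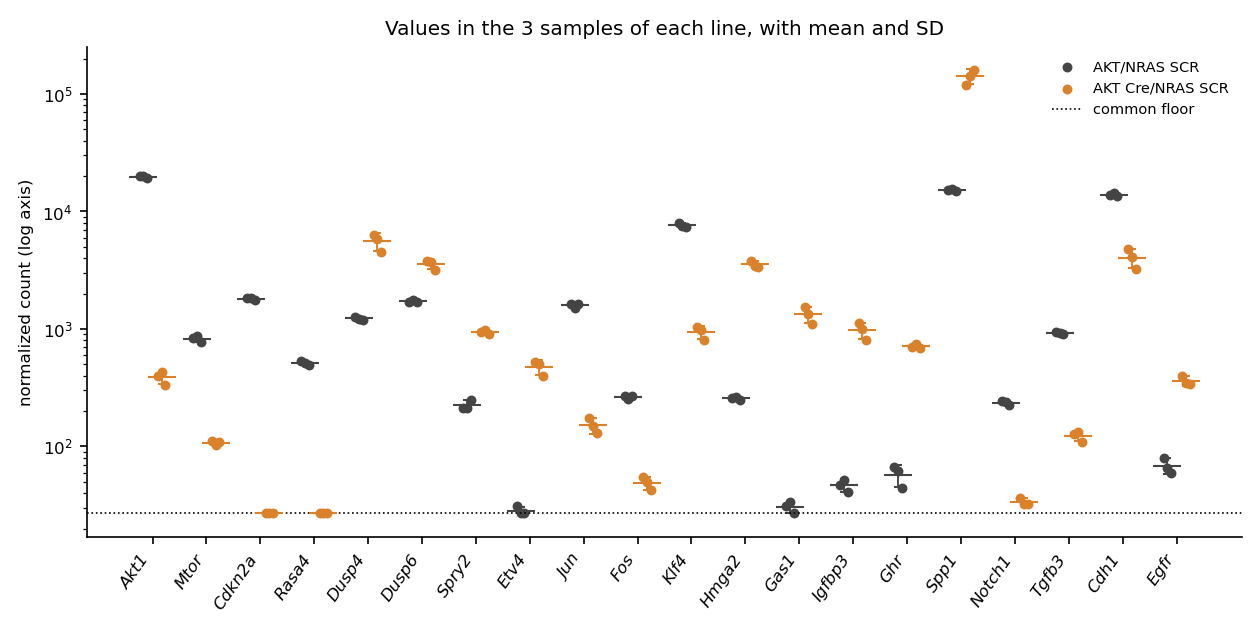
Normalized counts (log axis) of 20 genes in the 3 SCR samples of AKT/NRAS (dark) and AKT Cre/NRAS (orange). Bars mark mean and SD, and a dotted line marks the common floor of 27.1. The lines did not overlap in any of these 20 genes, which were chosen for display, nor in 411 of the 515 tested genes (79.8%). *Cdkn2a* and *Rasa4* stood at the floor in all 3 AKT Cre/NRAS samples.

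Among RAS genes, those that lead into the pathway and those that switch RAS off were both lower in AKT Cre/NRAS. Of 16 tested members, 13 were lower, 2 higher and 1 did not pass (median -0.62), and 6 were lower under all 8 scalings. *Nras* itself read 875, 859 and 843 in AKT/NRAS and 896, 854 and 863 in AKT Cre/NRAS, with overlapping samples (0.02, adjusted p = 0.812, range -0.50 to 0.53 over the scalings), and whether its probe reads the *NRAS* construct was not tested. *Sos1*, an exchange factor that loads RAS, was lower, at 659.7, 696 and 659 against 238, 198 and 197 (-1.67). The adaptors *Grb2* (-1.24) and *Shc2* (-1.36), and *Rasa4*, a RAS GTPase-activating protein, shared that direction. *Rasa4* was 534, 517 and 493 in AKT/NRAS and at the floor in all 3 AKT Cre/NRAS samples, so that it was at least 19.0-fold lower. The genes that were higher were *Rin1*, a RAS effector that passed in 5 of 8 scalings, and *Plce1*, a phospholipase C that binds RAS, which rose from 163, 191 and 167 to 1686, 1283 and 1184 (2.97, standard error 0.14, adjusted p = 2.55e-07).

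Of the 6 tested kinases from RAF to ERK, 3 were lower in AKT Cre/NRAS and 3 did not pass. None was called under all 8 scalings, and their median of -0.31 lay close to that of the panel. *Mapk3*, which encodes ERK1, was 7613, 7512 and 7259 in AKT/NRAS and 4373, 3916 and 2929 in AKT Cre/NRAS (-1.02, 7 of 8 scalings), and *Braf* was -1.12 (7 of 8).

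The feedback inhibitors of ERK were higher in AKT Cre/NRAS. Of 8 tested DUSP and Sprouty genes, 6 were higher and 2 lower, with a median of 1.51, the highest of the 34 lists under this scaling, against -0.22 for the panel, and 5 of the 6 were higher under all 8 scalings. *Dusp4*, the nuclear MAP kinase phosphatase, was 1273, 1226 and 1186 in AKT/NRAS and 6343, 5843 and 4483 in AKT Cre/NRAS (2.16, standard error 0.12, adjusted p = 8.98e-07, range 1.64 to 2.67). *Dusp6*, its cytoplasmic and ERK-selective relative, was 1712, 1766 and 1682 and 3807, 3711 and 3199 (1.05, standard error 0.08, adjusted p = 7.01e-06), past the threshold in 6 of 8 scalings with a range of 0.53 to 1.56. Neither overlapped between the lines (79.8% of tested genes did not), and both were lowest in replicate 3 among the AKT Cre/NRAS samples. *Dusp5*, a nuclear phosphatase for ERK, rose from 111, 85.8 and 104 to 343, 304 and 283 (1.62). The Sprouty genes rose as well, *Spry2* from 212, 213 and 249 to 945, 982 and 902 (2.07), *Spry4* from 132, 121 and 131 to 463, 375 and 357 (1.62) and *Spry1* from 77.3, 76.5 and 80.0 to 227, 189.8 and 204 (1.39). The pair that was lower, *Dusp8* (-1.31) and *Dusp10* (-1.01, 7 of 8 scalings), encodes phosphatases known for acting on JNK and p38 rather than ERK.

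The transcription factors that ERK induces split into 4 higher and 4 lower of 8 tested (median -0.27, close to the panel). *Etv4*, an ETS factor downstream of ERK, was 30.9, 27.1 and 27.1 in AKT/NRAS, with 2 samples at the floor, and 524, 504 and 398 in AKT Cre/NRAS (4.01, standard error 0.13, adjusted p = 4.23e-08). *Fosl1*, which encodes the AP-1 subunit FRA1, rose from 242, 240.0 and 239 to 734, 638 and 549 (1.40). Against these, some immediate early genes were lower. *Jun* fell from 1641, 1512 and 1643 to 176, 149 and 130.4 (-3.40, standard error 0.12, adjusted p = 4.4e-08), *Fos* from 267, 255 and 267 to 54.6, 50.1 and 42.4 (-2.41) and *Klf4*, an epithelial zinc finger factor, from 7953, 7486 and 7432 to 1031, 974 and 802 (-3.03). Subunits of AP-1 thus moved both ways. The 3 samples of each line stayed apart in all 5 genes, as they did in 79.8% of tested genes. *Ets2* was also lower (-0.94, 7 of 8 scalings), while *Myc* and *Nr4a1* passed as higher in 5 of 8.

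Sequences before the start of these genes are shown for a pair from each side, the inhibitors *Dusp5* and *Spry1* that were higher and the immediate early *Fos* and *Jun* that were lower, because these are the members in which a searched motif was found. RefSeq promoters (build GRCm38.p6) matched 4 of the 6 higher inhibitors (not *Dusp4* and *Spry4*) and all 3 of *Fos*, *Jun* and *Klf4*. The 250 bases before each start were searched on both strands for the AP-1 motif TGANTCA, the related motif TGANNTCA, the ETS motif GGAAGT and the CArG box that serum response factor binds. Over all 32851 promoters of the table, 6.75%, 11.9%, 19.7% and 1.47% held these motifs. Capitals mark the matches in the lines below, each read 5′ to 3′ towards the gene.
*Dusp5*, chr19:53528895-53529144, + strand: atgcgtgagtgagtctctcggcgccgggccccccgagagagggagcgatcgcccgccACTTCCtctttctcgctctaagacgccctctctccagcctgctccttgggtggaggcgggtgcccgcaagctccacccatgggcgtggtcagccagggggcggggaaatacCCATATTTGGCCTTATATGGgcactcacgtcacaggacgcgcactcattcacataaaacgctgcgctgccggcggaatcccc
*Spry1*, chr3:37639697-37639946, + strand: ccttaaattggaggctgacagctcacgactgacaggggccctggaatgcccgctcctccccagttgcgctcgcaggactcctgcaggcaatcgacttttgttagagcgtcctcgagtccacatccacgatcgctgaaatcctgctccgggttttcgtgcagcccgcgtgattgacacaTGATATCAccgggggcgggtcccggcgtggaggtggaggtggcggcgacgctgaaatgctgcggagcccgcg
*Fos*, chr12:85473640-85473889, + strand: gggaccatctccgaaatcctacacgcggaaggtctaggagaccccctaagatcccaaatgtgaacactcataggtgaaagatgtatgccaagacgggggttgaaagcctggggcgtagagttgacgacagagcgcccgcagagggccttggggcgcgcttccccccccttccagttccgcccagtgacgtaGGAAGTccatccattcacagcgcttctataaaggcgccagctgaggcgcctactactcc
*Jun*, chr4:95052223-95052472, - strand: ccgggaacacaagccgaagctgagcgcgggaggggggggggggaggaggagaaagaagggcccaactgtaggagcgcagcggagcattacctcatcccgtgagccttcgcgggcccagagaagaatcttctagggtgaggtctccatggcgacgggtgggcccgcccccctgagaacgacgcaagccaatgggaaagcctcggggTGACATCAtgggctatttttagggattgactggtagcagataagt
*Dusp5* held adjoining CArG boxes that begin 82 and 72 bases before the start, and GGAAGT 193 bases before it, on the other strand. *Spry1* held TGANNTCA 72 bases before its start and *Jun* the same motif 45 bases before. *Fos* held GGAAGT 59 bases before its start. None of the 7 genes held TGANTCA in this window, nor did *Dusp6*, *Spry2* or *Klf4* hold any of the 4 motifs, which says only that these letters were not found there.

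*Cdkn2a*, which encodes the cell cycle inhibitors p16INK4A and p19ARF, gave the largest fitted difference under the main scaling. It was 1835, 1833 and 1776 in AKT/NRAS and at the floor in all 3 AKT Cre/NRAS samples. It was thus at least 67.0-fold lower (64.9-fold to 83.8-fold as the bound over the 8 scalings). In the siRNA samples of AKT Cre/NRAS it was at the floor again. The paper on these lines reports the other direction, a strong rise of *Cdkn2a* in AKT Cre/NRAS. Its text does not say which samples entered that comparison. From the same comparison the paper reports a reduction of *Akt1*, the direction seen here. Its Western blots of the lines showed more DUSP4 and DUSP6 protein in AKT Cre/NRAS. The direction given here follows the labels of the samples, which were checked here by *Akt1* alone. The cause of the conflict was not tested. Of 10 CDK inhibitors and p53/RB genes, 6 were lower, 3 higher and 1 did not pass (median -0.63). *Cdkn1c*, which encodes p57, fell from 277, 271 and 224 to 51.8, 60.0 and 58.0 (-2.16) under all 8 scalings. The others passed under fewer, *Cdkn1a* (p21) at -0.70 in 7, and *Cdkn1b* (p27) at 0.70 and *Mdm2*, the ubiquitin ligase that degrades p53, at 0.75 in 6 each.

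The cyclins and kinases of G1 and S phase were divided, with 4 higher, 4 lower and 4 not past the threshold of 12 (median 0.09). *Ccnd2*, which encodes cyclin D2, was 14641, 14739 and 13748 in AKT/NRAS and 3606, 3273 and 3008 in AKT Cre/NRAS (-2.13, standard error 0.09, adjusted p = 1.69e-07). *Ccnd1*, for cyclin D1, was 6249, 6528 and 6086 and 8205, 7110.4 and 6329, with overlapping samples (0.19, adjusted p = 0.127). The third D cyclin, *Ccnd3*, and *Cdk6*, the kinase that D cyclins activate, were lower by less than *Ccnd2* (-0.50 in 4 of 8 scalings and -0.53 in 7). Genes of DNA replication and mitosis leaned the other way, with 13 higher, 5 lower and 4 not past the threshold of 22 (median 0.47), 5 and 2 of them under all 8 scalings. *Hist1h3b*, a histone H3 gene of dividing cells, was 12605, 14242 and 13762 in AKT/NRAS and 33779, 37539 and 44793 in AKT Cre/NRAS (1.51), and *Hist2h3b*, a further one, was 1.47. Their sequences are near identical, so their probes may share transcripts. *Pole2*, a polymerase subunit (1.15), and *Rfc3* and *Rfc4*, clamp loader subunits (0.96 and 1.15), were higher, whereas *Rpa3*, a single-strand binding protein, fell from 3479, 3470.2 and 3486 to 788, 986 and 1653 (-1.68) and *Stmn1*, a tubulin-binding protein, by a log2 difference of -1.10. In each of these 7 genes the AKT Cre/NRAS library with the highest *Rpl19* to *Polr2a* ratio, replicate 3, also had the highest count. Of 5 SCF ubiquitin ligase genes, 1 was higher, 2 lower and 2 did not pass, none under all 8 scalings.

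Genes that promote apoptosis were more often higher, 6 of 11, with 3 lower and 2 not past the threshold (median 0.54). *Fas*, a death receptor, rose from 40.6, 39.4 and 45.2 to 98.0, 114 and 165 (1.53) and *Casp12*, a caspase of the endoplasmic reticulum, from 245, 234 and 231 to 489.7, 609 and 625 (1.27), and both were highest in AKT Cre/NRAS replicate 3, the library with the highest *Rpl19* to *Polr2a* ratio. *Casp9*, the initiator caspase of the mitochondrial route, was lower, at 227, 234 and 178 against 75.3, 69.8 and 62.4 (-1.60). Of 3 anti-apoptotic genes, 2 were higher and 1 lower. *Bcl2* was lower under all 8 scalings (-1.40, with 2 AKT Cre/NRAS samples at the floor), and *Bcl2l1*, which encodes BCL-XL, was higher in 7 (1.12). Among 7 stress response genes, 2 were higher, 3 lower and 2 did not pass. *Ddit3*, the factor CHOP of the unfolded protein response, rose from 1344, 1248 and 1199.6 to 2994, 3562 and 3259.8 (1.37), and *Gadd45b*, a stress-induced regulator of MAP3 kinases, fell from 592, 576 and 551 to 84.8, 86.9 and 93.7 (-2.68). Outside the lists, *Hsp90b1*, a chaperone of the endoplasmic reticulum, was higher too (1.80), a gene chosen here after its values were seen.

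Of 4 tested MYC family and HMGA genes, 3 were higher and 1 lower (median 1.39). The HMGA genes, architectural chromatin proteins of embryonic and tumour cells, were among the clearest rises. *Hmga2* was 259.8, 263 and 248 in AKT/NRAS and 3787, 3463 and 3381 in AKT Cre/NRAS (3.78, standard error 0.08, adjusted p = 3.1e-09), and *Hmga1* was 255, 225 and 265 and 1543, 1266 and 1110.4 (2.38). *Mycn* went the other way, from 521, 481 and 485 to 77.2, 48.4 and 55.7 (-3.04, adjusted p = 6.57e-07). *Myc* was 3328, 3278 and 3304 and 5021, 4178 and 3932 (0.40), past the threshold in 5 of 8 scalings. Of 7 HOX, PBX, PAX and RUNX factors, 4 were lower, 2 higher and 1 did not pass, and their median of -1.04 was the lowest of the 34 lists under this scaling. *Hoxa10* was 175, 179.7 and 176 in AKT/NRAS and at the floor in all 3 AKT Cre/NRAS samples (at least 6.54-fold lower). *Pax8* fell by a log2 difference of -2.64, with 2 AKT Cre/NRAS samples at the floor.

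The Wnt ligands that were counted differed between the lines. Of 5 tested, 2 were higher, 1 lower and 2 did not pass. *Wnt10a* was 37.7, 41.7 and 54.5 in AKT/NRAS and 662, 566 and 516 in AKT Cre/NRAS (3.68), and *Wnt7b* was 54.1, 52.2 and 48.7 and 683, 556 and 453 (3.40). *Wnt16* was 235, 250.4 and 248 in AKT/NRAS and at the floor in all 3 AKT Cre/NRAS samples, at least 9.03-fold lower. Of 14 receptors and further pathway genes, 7 were lower, 2 higher and 5 did not pass (median -0.49). *Axin2*, a target gene and inhibitor of beta-catenin signalling, stood at the floor in AKT/NRAS and at 156, 120.0 and 130.4 in AKT Cre/NRAS, at least 5.01-fold higher (3.52 to 7.80 over the scalings). The receptor *Fzd2* (-1.47), the transducer *Dvl1* (-1.25) and the inhibitor *Cxxc4* (-1.74) were lower under all 8 scalings.

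Notch and TGF-beta genes were mostly lower in AKT Cre/NRAS. Of 12 Notch genes, 8 were lower, 3 higher and 1 did not pass (median -0.88), and 5 were lower under all 8 scalings, none higher. The receptor *Notch1* fell from 241, 239 and 226 to 36.7, 32.2 and 32.3 (-2.77, adjusted p = 5.87e-08) and *Notch2* from 880.0, 931 and 908 to 364, 282 and 289.9 (-1.54). The ligand *Jag2* (-1.67), *Lfng*, a glycosyltransferase that tunes Notch receptors (-1.58), and *Aph1b*, a gamma-secretase subunit (-1.23), were lower as well. Of 10 TGF-beta genes, 8 were lower, 1 higher and 1 did not pass (median -0.93). The ligand *Tgfb3* was 939, 921 and 899 in AKT/NRAS and 127, 133 and 109 in AKT Cre/NRAS (-2.89), and *Ltbp1*, which holds the ligands latent, was 1432, 1459 and 1303 and 223, 185 and 152 (-2.91). The receptor *Tgfbr1* (-1.50) and its effector *Smad3* (-1.18) had the same direction under all 8 scalings.

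The BMP list held large differences of both signs, with 4 higher, 5 lower and 1 not past the threshold of 10. *Bmp2* fell from 645, 698 and 749 to 83.8, 70.7 and 78.0 (-3.15), and *Bmp6* was at the floor in all 3 AKT Cre/NRAS samples, at least 3.79-fold lower. *Bmp7*, in contrast, was at the floor in AKT/NRAS and at 194, 163 and 110.4 in AKT Cre/NRAS, at least 5.75-fold higher (4.16 to 9.22 over the scalings). *Fst*, the secreted antagonist of activin, rose from 30.9, 27.8 and 31.3 to 289, 306 and 264 (3.21), and *Id2*, a target gene of BMP signalling, fell by a log2 difference of -1.16. Ligands of the family thus moved both ways. The genes with the largest fitted rises, *Gas1* and *Gpc4*, were placed in the Hedgehog list. *Gas1*, a membrane protein that arrests growth and acts as a Hedgehog coreceptor, was 30.9, 33.6 and 27.1 in AKT/NRAS, with 1 sample at the floor, and 1543, 1333 and 1112 in AKT Cre/NRAS (5.39, standard error 0.14, adjusted p = 1.35e-08). *Gpc4*, a glypican that binds growth factors at the cell surface, stood at the floor in AKT/NRAS and at 1307, 1162 and 977 in AKT Cre/NRAS, at least 42.4-fold higher (30.1-fold to 67.2-fold as the bound over the scalings). The other 3 tested members of that list were 1 lower and 2 not past the threshold.

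The growth hormone and IGF genes had 3 higher, 1 lower and 2 not past the threshold of 6 (median 1.29). Of the 6, 4 were also counted in other lists. *Ghr*, the growth hormone receptor of hepatocytes, was 66.6, 61.5 and 44.1 in AKT/NRAS and 704, 749 and 692 in AKT Cre/NRAS (3.64, standard error 0.15, adjusted p = 1.69e-07). *Socs2*, which that receptor induces and which dampens it, was 321, 308 and 285 and 1913, 1766 and 1689 (2.55), and *Igfbp3*, the main carrier of IGF in blood, was 47.3, 52.2 and 40.6 and 1123, 989.5 and 812 (4.35). All 3 were higher in every AKT Cre/NRAS sample, as were 30.7% of tested genes, and under all 8 scalings, as were 11.3%. The receptor for insulin, *Insr*, was lower (-0.60, 7 of 8 scalings).

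Different receptor tyrosine kinases were high in each line, with 5 of 13 higher, 5 lower and 3 not past the threshold, and 5 and 3 of them held under all 8 scalings. *Egfr* rose from 80.2, 66.1 and 59.2 to 399, 345 and 339 (2.39) and *Pdgfra* from 52.2, 51.0 and 63.8 to 380.5, 335 and 235 (2.47). The other rises were those of the FGF receptors *Fgfr2*, *Fgfr1* and *Fgfr4*, while *Fgfr3* did not pass. *Fgfr2* was at the floor in AKT/NRAS and at 261, 245 and 202 in AKT Cre/NRAS (at least 8.72-fold higher, 6.16 to 13.8 over the scalings), *Fgfr1* likewise (at least 2.43-fold, 1.72 to 3.86 over the scalings), and *Fgfr4*, the FGF receptor of hepatocytes, was 1.62. *Erbb2* (-1.42) and *Erbb3* (-1.23, with 2 AKT Cre/NRAS samples at the floor), relatives of *Egfr*, were lower. *Flt1*, a VEGF receptor, fell from 1403, 1304 and 1259.9 to 369, 303 and 239 (-2.14). The other lower genes were *Epha2* and *Insr*. Of 20 growth factors, 8 were higher, 7 lower and 5 did not pass (median -0.01). *Pgf* (3.14, with 2 AKT/NRAS samples at the floor) and *Vegfc* (2.50), both ligands of VEGF receptors, were higher. *Angpt1*, the ligand of the TIE2 receptor, fell from 663, 612 and 580.1 to 84.8, 93.1 and 50.2 (-3.05), and *Fgf1* (-1.44) and *Pdgfc* (-1.24) were lower.

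Of 17 cytokines and innate receptors, 9 were higher, 5 lower and 3 did not pass (median 0.37), and 4 and 3 held under all 8 scalings. *Lifr*, the receptor for leukaemia inhibitory factor, rose from 90.8, 84.6 and 63.8 to 755, 681 and 601 (3.08), and *Cxcl1*, a chemokine for neutrophils, from 96.6, 101 and 89.3 to 265, 296 and 425 (1.74). *Csf2*, which encodes GM-CSF, was at the floor in AKT/NRAS and at 66.9, 90.4 and 140.5 in AKT Cre/NRAS, at least 3.67-fold higher (2.37 to 5.57 over the scalings), and *Cd40* was at least 3.09-fold higher in the same way (2.01 to 4.76 over the scalings). For *Cxcl1*, *Csf2* and *Cd40* the highest AKT Cre/NRAS count was again in the library with the highest *Rpl19* to *Polr2a* ratio. *Tlr4*, the receptor for lipopolysaccharide, was lower (-1.61), as were *Il22ra1*, a subunit of the IL-22 receptor (-1.95), and *Il15* (at least 3.12-fold). Among 11 NF-kappaB genes, 5 were lower, 1 higher and 5 did not pass, with *Nfkbia*, the inhibitor that NF-kappaB itself induces, at 2209, 2170.4 and 2055 in AKT/NRAS and 876, 929.5 and 929.8 in AKT Cre/NRAS (-1.23). Of 10 JAK, STAT and SOCS genes, 4 were higher, 5 lower and 1 did not pass. The kinase *Jak1* (-1.10) was lower under all 8 scalings.

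*Spp1*, which encodes osteopontin, a matrix protein secreted by cholangiocytes and by many tumours, had the highest count of all genes in each AKT Cre/NRAS sample. It was 15345, 15529 and 14872 in AKT/NRAS and 119863, 142698 and 161485 in AKT Cre/NRAS (3.20, standard error 0.14, adjusted p = 1.74e-07). The highest AKT Cre/NRAS count was again in the library with the highest *Rpl19* to *Polr2a* ratio. Of 19 integrins and matrix genes, 6 were higher, 7 lower and 6 did not pass (median 0.02). *Itga2*, a collagen-binding integrin, rose from 144, 204 and 182 to 866, 812 and 875 (2.28), while *Itgb4*, the laminin-binding integrin of epithelial anchoring junctions (-1.33), and *Fn1*, which encodes fibronectin (from 8223, 7673 and 7384 to 4832, 3543 and 3396, 7 of 8 scalings), were lower. The actin cross-linker *Flnc* was also lower, from 846, 785 and 809.8 to 90.4, 50.1 and 69.1 (-3.56).

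Factors of liver and epithelial cells moved apart, with 6 higher, 5 lower and 2 not past the threshold of 13. Of the 13, 6 were also counted in other lists. The epithelial pair fell together. *Cdh1*, which encodes E-cadherin, was 13747, 14248 and 13599 in AKT/NRAS and 4753, 4102 and 3239.8 in AKT Cre/NRAS (-1.80, standard error 0.13, adjusted p = 4.26e-06), and *Tmprss2*, an epithelial protease, was 379, 294 and 328 and 71.6, 87.8 and 81.4 (-2.04). Of the hepatocyte transcription factors, *Cebpa* (-0.82) was lower in 7 of 8 scalings and *Hhex* higher in 6 (1.07). *Prom1*, which encodes the progenitor marker CD133, was at the floor in AKT/NRAS and at 61.2, 60.0 and 37.9 in AKT Cre/NRAS. It was at least 1.96-fold higher (1.5 to 3.16 over the scalings, called in 6 of 8), so its counts stayed near the floor in both lines. Markers of other cells were few. *Kdr* of endothelium and *Csf1r* and *Csf3r* of leukocytes were at or under the floor in all 6 samples, as were 3 of 5 fibroblast markers. The level above the floor, summed over the 5, was 25.9 to 50.3 normalized counts in AKT/NRAS and 215 to 353 in AKT Cre/NRAS, and came from *Pdgfra* and *Col1a1*.

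Chromatin genes were lower in large number and mostly by a modest amount. Of 30 SWI/SNF subunits and histone modifiers, 24 were lower, 2 higher and 4 did not pass (median -0.73 against -0.22 for the panel), but only 8 were lower under all 8 scalings, and with the values as deposited 8 were lower and 3 higher. *Arid1a*, the DNA-binding subunit of SWI/SNF, fell from 999.7, 983 and 936 to 318, 241 and 224 (-1.91), and *Smarca4*, its ATPase, from 2608, 2653 and 2548 to 1108, 819 and 811 (-1.53). *Hdac1*, a histone deacetylase (-1.66), *Kmt2c*, a histone H3 methyltransferase (-1.34), and *Setbp1* (-2.49) were lower too. In the siRNA samples 13 of the 30 were lower and 7 higher. Among the reference genes that were not kept, *Polr2a* fell from 3043, 3064 and 3005 to 1023, 713 and 737 (-1.90). Of 5 DNA methylation genes, 2 were lower and 3 did not pass, none under all 8 scalings.

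Of 38 DNA repair genes, 19 were lower, 10 higher and 9 did not pass (median -0.25, close to the panel), and 3 and 3 held under all 8 scalings. *Mgmt*, which removes alkyl groups from guanine, was at the floor in AKT/NRAS and at 270.3, 358 and 419 in AKT Cre/NRAS. It was thus at least 12.9-fold higher (8.58 to 20.7 over the scalings). *Ube2t*, the ubiquitin-conjugating enzyme of the Fanconi pathway, rose from 88.9, 84.6 and 85.9 to 212, 235 and 392 (1.63) and *Fancl*, its ligase partner, from 239, 267 and 220.4 to 400.3, 518 and 641 (1.08). All 3 were highest in AKT Cre/NRAS replicate 3. *Prkdc*, the kinase of end joining (-1.49), *Brca1* of homologous recombination (-1.19) and *Fancg* (-1.61) were lower. Of 15 calcium channel and protein kinase C genes, 9 were lower, 4 higher and 2 did not pass. *Prkca*, which encodes protein kinase C alpha, fell from 2072, 1845 and 1744 to 571, 437 and 381 (-2.04), and *Pla2g4a*, a phospholipase that releases arachidonic acid, rose by at least 3.95-fold from the floor in AKT/NRAS (2.76 to 6.18 over the scalings). Of 10 JNK and p38 kinases, 6 were lower, 2 higher and 2 did not pass. *Map2k6*, which activates p38, was higher (1.22) and *Map3k7*, which encodes TAK1, lower (-1.15) under all 8 scalings.

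**Figure D4:**
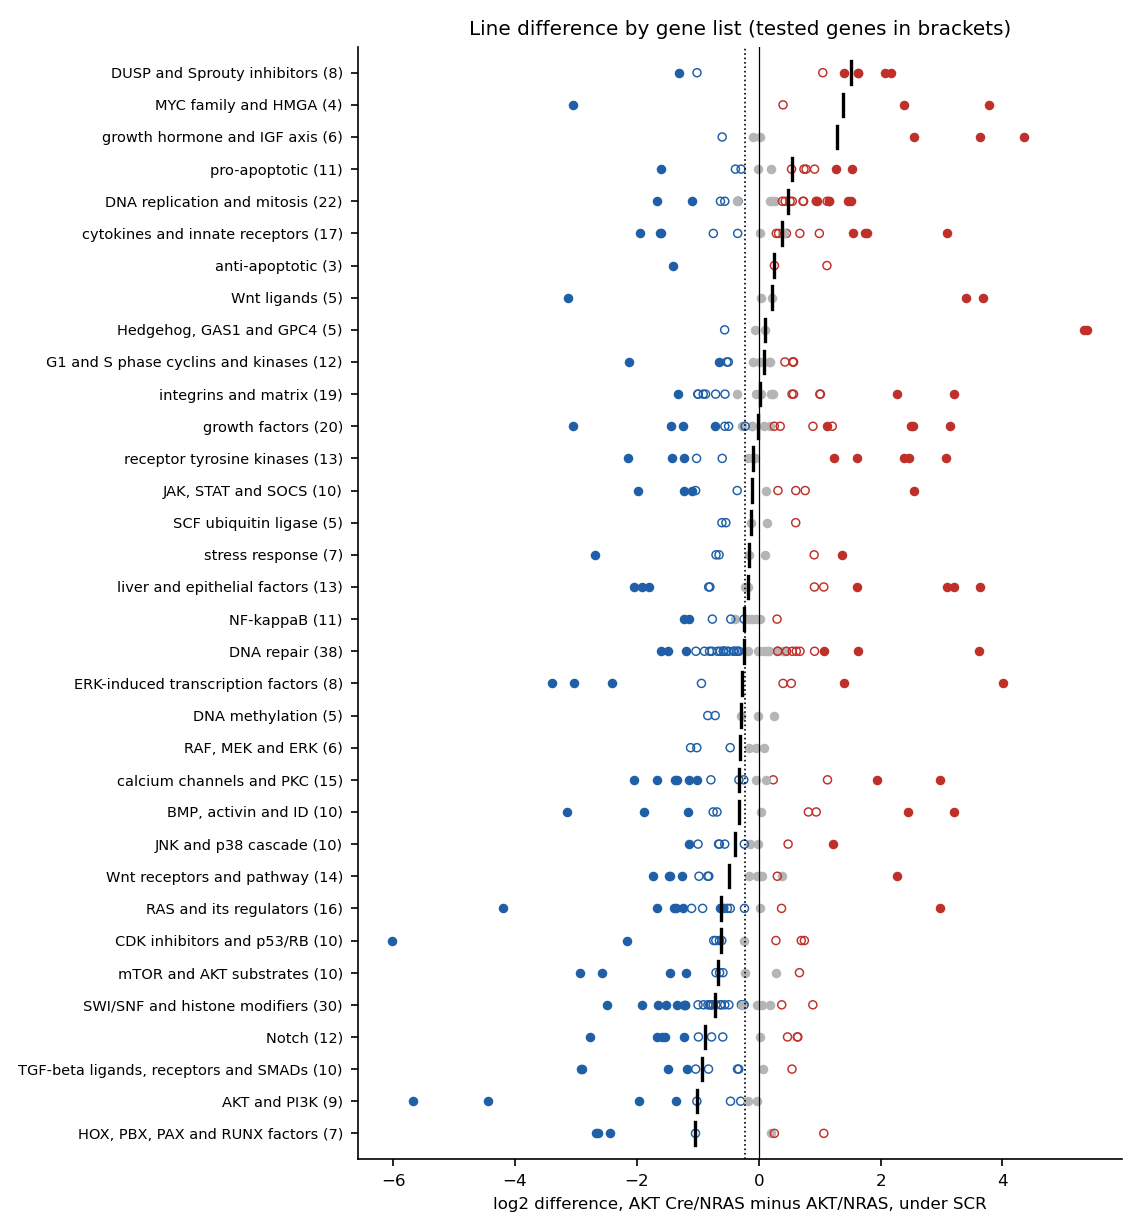
Log2 differences between the lines under SCR for the tested members of 34 gene lists, ordered by the list median (black bar). Red points were higher and blue points lower in AKT Cre/NRAS, filled where the call held under all 8 scalings, and grey points did not pass. The solid line is 0 and the dotted line the panel median of -0.22. The DUSP and Sprouty list has the highest median (1.51) and the HOX, PBX, PAX and RUNX list the lowest (-1.04).

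Some genes were above the floor in 1 line only. In AKT/NRAS 30 tested genes stood at the floor in all 3 samples, and in AKT Cre/NRAS 16 did. These genes were tested only through the line in which they lay above the floor, which fixed the direction of any call. The calls among them (16 and 14) are therefore a description, and the counts of the lists and of the panel include them. The bounds reached from 1.27-fold to 67.0-fold under the main scaling, since a gene only just above the floor in 1 line can give no large bound. Placing these genes at their bound moved the median of 1 of the 34 lists by more than 0.01, that of the Wnt ligands from 0.22 to 0.26.

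The siRNA samples of the same lines gave the comparison in libraries outside the SCR contrast, although all 12 samples entered the choice of reference genes. There 389 of 522 tested genes differed (74.5%), 191 higher (36.6%) and 198 lower (37.9%) in AKT Cre/NRAS. Of the 512 genes tested in both, 319 were called in both with the same sign, which is 80.6% of the 396 called under SCR and 82.2% of the 388 of them called under siRNA, and 9 were called with opposite signs. Of the 176 genes that differed at least 2-fold under SCR, 174 were called with the same sign under siRNA. *Etv4* was 4.01 under SCR and 4.37 under siRNA, *Igfbp3* 4.35 and 4.40, and *Ghr* 3.64 and 3.75.

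**Figure D5:**
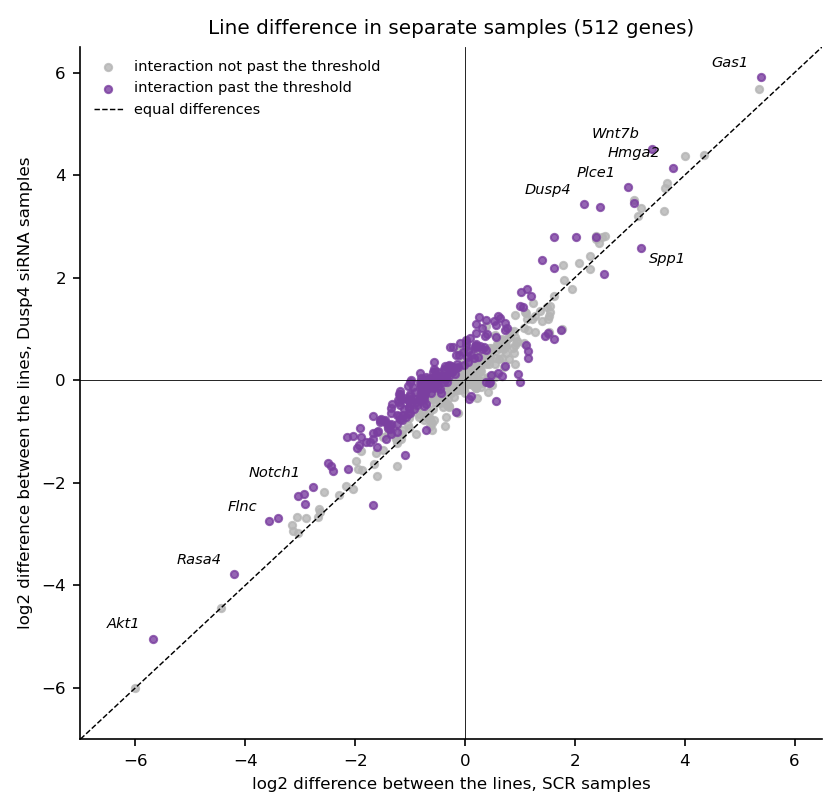
Log2 difference between the lines in the SCR samples (horizontal) and in the *Dusp4* siRNA samples (vertical) for 512 genes, with the line of equal differences. Purple points passed the interaction test. Large differences have the same sign in both sets, and under the scaling plotted many falls, among them that of *Akt1*, are smaller in the siRNA samples.

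The size of the difference was not the same in both sets. The interaction of line and siRNA, fitted by limma over all 12 samples, was past the threshold in 238 of 525 genes (45.3%), of which 203 were among the 396 called under SCR. The count and its direction turned with the scaling. Here 213 of the changes were negative (SCR minus siRNA) and 25 positive, with the values as deposited 2 of 32 were negative, and after re-centring 67 of 172. *Dusp4*, the target of the siRNA, was 350.2, 389 and 371 in AKT/NRAS and 4126, 4174 and 3769 in AKT Cre/NRAS after siRNA, lower than under SCR in both lines. Its difference between the lines was 2.16 under SCR and 3.44 under siRNA (change -1.28, standard error 0.15, adjusted p = 0.000728). *Akt1* was -5.68 and -5.04 (change -0.64, adjusted p = 0.00211), and *Wnt7b* was 3.40 and 4.51 (change -1.11, adjusted p = 0.00305). All 3 kept the direction of the SCR samples. With the values as deposited the change was -0.85 for *Dusp4*, -0.21 for *Akt1* and -0.70 for *Wnt7b*, and none of the 3 passed.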

How the data were processed

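RNA of 12 cell culture samples was hybridised to the NanoString® Mouse PanCancer Pathways panel, which counts fluorescent barcodes per transcript without amplification. The authors deposited, for each of 770 genes and each sample, a signal scaled to the 6 positive control probes, with values at or under 20 set to 20. Values above 20 divided by 1 factor per sample gave whole barcode counts (tolerance 0.05), 646335 to 1081646 per SCR sample. Floored values have no count, so no count model was fitted. Samples were grouped by their labels, and no 2 replicates held identical values. Intervals from these counts were not used, since the replicates give the error.

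Each sample was scaled on 15 of the 20 reference genes, chosen by geNorm stability over the 12 samples, and a common floor of 27.1 was set. Genes above it in at least 1 sample were compared as log2(value + 1) in limma 3.58.1 (R 4.3.3), where eBayes followed the trend of variance with level, with the Benjamini-Hochberg adjustment and a threshold of 0.05. Fold changes of genes near the floor are understated on this scale, and a gene at the floor in all 3 samples of a line is given as a bound, the mean of the other line over the floor. No reference gene step was found in the deposited signal, and 8 scalings were therefore compared. The fit was tested on simulated data. Figures were drawn with matplotlib 3.10.9.

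Genes are named by rule: *Akt1*, *Cdkn2a*, *Dusp4*, *Dusp6* and *Prom1*, the 15 largest rises and falls without overlap, up to 6 smallest p of each list, genes at the floor, and reference genes. Further list members, and *Hsp90b1*, were chosen after their values were seen. The members, the 34 lists, the scaling and the floor were chosen with earlier results of these data known. Each p-value sets the difference between the lines against the spread among replicates, pooled over both. With 1 line of each genotype it says nothing of other lines, and the cause of any difference was not tested. Replicate numbers were not treated as pairs in the main fit. The correlation of deviations between same-numbered SCR samples of the lines was 0.00498, -0.0331 and -0.0326. Pairing of SCR with siRNA samples within a line was not tested. Some members are not reported here.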

Additional observations from a re-analysis of the deposited data

Results flagged for a closer look

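The genes below are those of the 5 named by rule and of the 30 largest differences whose size differed between the control and the siRNA samples in the interaction test of limma. Each value is the log2 difference between the lines under SCR minus that under siRNA. Among genes lower in AKT Cre/NRAS, a negative value means a larger fall under SCR: *Flnc* (-0.81), *Klf4* (-0.77), *Mtor* (-0.71), *Jun* (-0.70), *Notch1* (-0.68), *Akt1* (-0.64), *Ltbp1* (-0.50) and *Rasa4* (-0.41). Among genes higher in AKT Cre/NRAS, a negative value means a smaller rise under SCR, as for *Dusp4* (-1.28), *Wnt7b* (-1.11), *Plce1* (-0.79), *Gas1* (-0.52), *Fgfr2* (-0.40), *Dusp6* (-0.37) and *Hmga2* (-0.37). *Spp1* rose by more under SCR (0.63). *Rasa4* stood at the floor in all AKT Cre/NRAS samples and *Fgfr2* in all AKT/NRAS samples under SCR, so for them the value depends on the floor. The calls depended on the scaling, over the 7 that cover all 12 samples. With the values as deposited 1 of the 16 passed, *Spp1*, and *Dusp6*, *Hmga2* and *Rasa4* turned positive. After re-centring 5 of the 16 passed and after quantile normalization 9, with all 16 signs as given. Of the called genes of the whole panel 213 of 238 were negative, against 2 of 32 with the values as deposited and 67 of 172 after re-centring.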

How the results depend on the processing

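Over 27 alternatives the 137 genes with values in the text kept their direction and their side of the threshold in 3601 results, while 36 lost the call, 9 gained it and 13 changed sign. The number of genes called under SCR was 301 to 454, against 396. The lower count was 99 with the values as deposited, and the higher count was 97, 69 and 59 with the first 10, the first 5 and the SCR-chosen reference genes. Leaving out 1 sample gave 358 to 413 calls, 134 to 161 higher and 222 to 253 lower. The sign changes lay in genes with small differences. *Nras* was -0.26, -0.40 and -0.50 under those 3 reference choices, -0.00653 with sample weights and -0.000891 to 0.0332 without 1 sample, the lowest without AKT Cre/NRAS replicate 1. *Ccnd1* was -0.0883, -0.23 and -0.33 under the same 3. *Myc* was -0.0226 and -0.12 and *Rin1* -0.0462 and -0.15 with the first 5 and the SCR-chosen genes. With the values as deposited *Ccnd3* was 0.00437.

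The siRNA comparison gave 333 to 404 calls against 389, and 366 to 383 without 1 sample. The interaction was less stable. Of its 238 calls 25 were positive and 213 negative. As deposited there were 32 calls, 2 of them negative, and with the Benjamini-Yekutieli adjustment 101, 0 positive and 101 negative. Re-centring gave 105 positive and 67 negative, and quantile normalization 92 and 98. Leaving out 1 sample gave 176 to 307 calls, 12 to 57 positive and 164 to 250 negative, the highest without AKT Cre/NRAS SCR replicate 1. With the replicate number as a block the calls were 397 under SCR, 404 under siRNA and 240 for the interaction. No call of the 137 genes changed. Same-numbered SCR samples of the lines did not vary together, and pairing of SCR with siRNA samples was not tested. Nothing more is read from the block. The cause of these shifts was not tested. The floor limits what can be said of dim genes.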
